A study of Sus scrofa with 12 samples.

Results

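Smooth muscle cells from porcine coronary artery were exposed to S100A4 protein for 4 h and compared with cells that received no protein. The comparison used 6 of the 12 libraries of the series, chosen by their treatment label and joined into pairs by replicate number (1, 2 and 3). The S100A4 group had 3 libraries from cells given 1 µg/ml of the protein, and the Control group had 3 libraries from cells given neither S100A4 nor PDGF-BB. All cells were primary cultures between passages 6 and 11, labelled as having a differentiated, contractile phenotype, and were kept with 10% fetal calf serum for 24 h before treatment, the Control cells included. The series also holds 3 libraries with PDGF-BB (30 ng/ml) together with S100A4 and 3 with PDGF-BB alone, and those 6 were used to see the same protein act in other dishes. The design text gives 3 animals as the source of the cells, but no label ties a replicate number to an animal, so the tests speak for the spread among the libraries at hand. The protein appears as oS100A4 in the series' design; its species, source and preparation were not stated in the sources used here.

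S100A4 is a small calcium-binding protein of the S100 family that works inside cells and is also released from them. Outside the cell, S100 proteins are known to act on the receptor RAGE (gene AGER) and on Toll-like receptors, which signal through adaptor proteins and kinases to the transcription factor NF-kB. NF-kB dimers are held in the cytoplasm by IkB proteins. When these are degraded, the dimers enter the nucleus and switch on chemokines, cytokines, adhesion molecules and also their own inhibitors, a feedback loop that ends the signal. In smooth muscle of the artery wall such a program can accompany loss of contractile proteins and recruitment of leukocytes.

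The 6 libraries held 21455021 to 27707861 counts, and 12095 of 21153 genes had at least 10 counts in 3 or more of them and were tested. Replicate number shaped the libraries more than treatment did: the summed level of 10 smooth muscle markers was 18700, 8710 and 20200 counts per 1e6 counts (CPM) in S100A4 replicates 1 to 3, against 19700, 10300 and 23700 CPM in Control. This sum was lowest in replicate 2 of both groups. It was mostly ACTA2 (mean 12240 CPM with S100A4 and 13750 CPM in Control), so it need not hold for each marker. The sum of 5 pericyte markers, mostly NOTCH3 and CSPG4, was also lowest in replicate 2. It was 320 CPM with S100A4 and 328 CPM in Control, against 1160 to 1540 CPM in the other 4 libraries. RGS5, 1 of the 5, was highest there, with 41, 186 and 11 counts in Control replicates 1 to 3 and 22, 166 and 7 with S100A4. The sum of 8 endothelial markers was highest in replicate 2 (159 and 148 CPM, against 58.5 to 99.7 CPM). Fibroblast markers summed to 2600 to 2770 CPM with S100A4 and 2610 to 2900 CPM in Control, most of it COL15A1 (mean 2065 and 2109 CPM). LUM, DCN, DPT, PI16 and PDGFRA were instead highest in replicate 2 of both groups. In Control replicates 1 to 3, LUM had 9425, 23614 and 4566 counts and PDGFRA 760, 3905 and 176. TCF21 was highest in replicate 3. The leukocyte genes PTPRC, CD163 and CD3E, the epithelial genes KRT8 and CDH1, and the cardiomyocyte gene TNNT2 had no count in any of the 6 libraries. Because same-numbered libraries varied together, the test was edgeR's quasi-likelihood test with replicate number as a block. Values below are per-library CPM in the order of replicates 1, 2 and 3, then the log2 fold change of S100A4 over Control ± SE. Each comes with its Benjamini-Hochberg adjusted p over all 12095 genes, called at 0.05. The SE was derived from the F statistic of that test, which draws on the spread shared across genes. It is not the spread of the 3 pair differences, which can be wider.

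S100A4 changed 1760 genes, 14.6% of those tested. Of these, 1010 rose (8.35%) and 750 fell (6.2%). With upper-quartile scaling the split turned to 893 higher and 1147 lower, 43.8% higher in place of 57.4%. The sizes of the increases and decreases were unequal: 126 genes rose at least 2-fold and 38 at least 4-fold, whereas 7 fell at least 2-fold and 0 fell 4-fold. The median change was 0.34 among genes that rose and −0.25 among genes that fell, on the log2 scale. In 1748 of the 1760 genes all 3 pairs moved the same way (48.3% of all tested genes did so), and in 642 the 3 S100A4 libraries did not overlap the 3 Control libraries, which held for 9.88% of all tested genes. Without the block 27 genes passed (0.223%), 26 higher and 1 lower, and all 27 were among the 1760. They included TNFAIP3, NFKBIA, RELB, NFKB2, IRAK2, VCAM1, ICAM1, CSF1, RND1, AKR1D1 and the interferon-regulatory factor IRF1 among the genes that rose, with LURAP1L as the gene that fell. Several genes with large increases described below did not pass edgeR's test without the block. They were AMCF-II (adjusted p = 0.3085), CXCL8 (0.8989), CXCL2 (0.7906), CCL2 (0.6028), IL1A (0.3942), LIF (0.2461) and IL6 (0.779), among others. DESeq2 with the block called 858, and the fit without Control replicate 1 called 1133, of which 1064 were among the 1760. With the block, a library whose partner is left out no longer adds to the contrast. Leaving out 1 library therefore differs from leaving out its pair (1275 calls without replicate 1) only in scaling and estimated spread. It is not a separate check of that library, here or below. The number of genes that fell was 416 without replicate 3, 471 without replicate 1 and 436 without Control replicate 1.

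**Figure D1:**
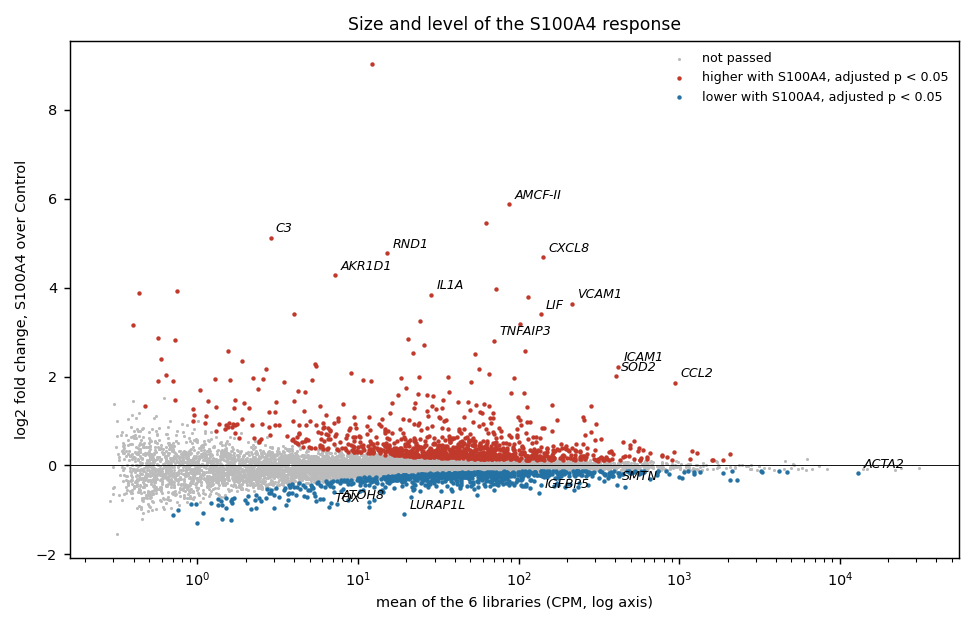
Log2 fold change of S100A4 over Control (vertical axis) against the mean level of the 6 libraries in CPM (horizontal log axis), 1 dot per tested gene. Red dots are the 1010 genes that rose, blue dots the 750 that fell and grey dots those that did not pass; changes beyond 2-fold lie almost entirely above 0.

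Receptors that could carry the signal were looked at first. AGER, the RAGE receptor, had 2 counts in each S100A4 library and 0, 3 and 0 counts in Control, which is too few for a test. TLR4, the endotoxin receptor, had 3.93, 18.3 and 4.59 CPM with S100A4, against 5.62, 14.7 and 4.45 CPM in Control. Its pairs moved in different directions and it did not pass (0.06 ± 0.13, adjusted p = 0.806), with a value of −0.23 once replicate 2 was left out. TLR2, which senses bacterial lipoproteins, had 8.95, 10.2 and 7.96 CPM in S100A4 libraries, against 2.4, 2.26 and 1.06 CPM in Control libraries. The groups did not overlap, and TLR2 rose 4.70-fold (2.23 ± 0.15, adjusted p = 7.7e-07). CD40, a receptor of the TNF receptor family, rose 2.08-fold (1.06 ± 0.07, adjusted p = 6.98e-07), and the interleukin-1 receptor IL1R1 (0.69 ± 0.05) rose with its partner IL1RAP (0.85 ± 0.09). These 4 were the members that passed among 13 tested receptors upstream of NF-kB, and none fell. The median of the 13 was 0.06, against −0.02 over all tested genes. Counts for this and the later lists stand against 8.35% higher and 6.2% lower over all tested genes. The lists were chosen with earlier results of these data known, so these shares are a background and not a test of the lists. The TNF receptor TNFRSF1A (0.08 ± 0.05, adjusted p = 0.324) and the lymphotoxin receptor LTBR (−0.12 ± 0.04, adjusted p = 0.0721) did not pass.

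Of 31 tested adaptors and kinases between receptors and NF-kB, 12 rose and 2 fell, with a median of 0.12. Over all tested genes 8.35% rose and 6.2% fell. IRAK2, a kinase-like adaptor of Toll-like and interleukin-1 receptors, had 36.9, 37.2 and 47.8 CPM with S100A4, against 12.8, 13.6 and 13.8 CPM in Control, a 3.00-fold rise (1.58 ± 0.07, adjusted p = 1.23e-08). Both groups were tight and far apart. MAP3K8, the kinase TPL2 that links NF-kB1 p105 to ERK, rose 3.73-fold (1.90 ± 0.13), and IRAK3, an inhibitory member of the IRAK family, rose 2.62-fold (1.39 ± 0.10). MALT1, a protease of the CARD-BCL10-MALT1 complex, rose 1.8-fold (0.85 ± 0.08), its partner BCL10 by 0.24 ± 0.05, and the TRAF-binding adaptor TIFA by 0.84 ± 0.11. The adaptor of TLR3 and TLR4, TICAM1 (0.47 ± 0.06), and the ubiquitin ligase BIRC3 (0.40 ± 0.04) rose less. The members that fell were TRAF5 (−0.46 ± 0.07) and CARD10 (−0.21 ± 0.05). MYD88, the adaptor shared by most Toll-like receptors, stayed at 62.4 to 68.7 CPM with S100A4 and 66.7 to 69.6 CPM in Control and did not pass (−0.06 ± 0.04, adjusted p = 0.383).

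All 5 NF-kB subunit genes rose, each without overlap between the groups. Over all tested genes 8.35% rose and 9.88% had no overlap. RELB had 72.9, 65.2 and 74.4 CPM with S100A4, against 24.6, 29.3 and 24.1 CPM in Control, and its 2.71-fold rise was the largest of the 5 (1.44 ± 0.08, adjusted p = 7.3e-08). NFKB1, which encodes p105 and p50, had 114, 158 and 130 CPM with S100A4 and 54.6, 74.6 and 59.8 CPM in Control (1.09 ± 0.04, adjusted p = 1.9e-09). Its 3 pairs gave nearly the same difference, 1.07, 1.08 and 1.12 on the log2 scale. NFKB2 rose 1.94-fold (0.95 ± 0.05), REL 1.86-fold (0.90 ± 0.06) and RELA, the p65 subunit, 1.31-fold (0.39 ± 0.04). Their median was 0.95.

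The inhibitors rose with the subunits. Of 14 tested inhibitors and feedback genes of NF-kB, 11 rose and none fell, with a median of 0.69. TNFAIP3, which encodes the ubiquitin-editing enzyme A20, had 109, 149 and 110 CPM in S100A4 libraries, against 16.9, 22.7 and 13.1 CPM in Control libraries. Every S100A4 library lay far above every Control library, and TNFAIP3 rose 7.01-fold (2.81 ± 0.07, adjusted p = 4.12e-11). NFKBIA, the inhibitor IkB-alpha, had 133, 165 and 151 CPM with S100A4 and 38.2, 45.1 and 32.4 CPM in Control, a 3.88-fold rise (1.96 ± 0.07, adjusted p = 9.22e-10). ZC3H12A, an RNase that degrades inflammatory mRNAs, rose 3.98-fold (1.99 ± 0.08). NFKBIZ (1.30 ± 0.07), a nuclear IkB protein, NFKBIE (1.23 ± 0.07) and NFKBIB (0.60 ± 0.05), both cytoplasmic IkB proteins, and TNIP1 (0.78 ± 0.05), a partner of A20, also rose. So did the deubiquitinase CYLD, by 0.24 ± 0.05. The members that did not pass were NFKBID (0.29 ± 0.11), TNIP2 (0.08 ± 0.10) and OTULIN (−0.02 ± 0.05).

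The annotated gene with the largest fold change was a chemokine. AMCF-II, a porcine chemokine first known as alveolar macrophage-derived chemotactic factor II (chr8:70008225-70010360 in the RefSeq annotation of Sscrofa11.1), had 68.1, 361 and 84.8 CPM with S100A4, against 0.991, 6.97 and 0.774 CPM in Control. Replicate 2 was the highest in both groups and the groups did not overlap. The rise was 59.0-fold (5.88 ± 0.10, adjusted p = 2.01e-12). CXCL8, interleukin-8, which attracts neutrophils (chr8:69932646-69935861), had 49.2, 678 and 89.9 CPM with S100A4, against 1.20, 30.6 and 2.23 CPM in Control. The Control level of replicate 2 was above those of the other Control libraries by more than 10-fold, and its pair gave the smallest difference (4.47, against 5.27 and 5.29 in the other pairs). CXCL8 rose 25.6-fold (4.68 ± 0.11, adjusted p = 4.12e-11), and without replicate 2 the change was 5.35. CXCL2 (chr8:70157253-70159145), another neutrophil attractant, had 46.2, 291 and 68.4 CPM in S100A4 libraries, against 2.44, 23.4 and 1.74 CPM in Control libraries, and rose 15.8-fold (3.98 ± 0.16), with 4.74 without replicate 2. These 3 genes lie in 1 cluster on chromosome 8, with 72.4 kb between CXCL8 and AMCF-II and 147 kb between AMCF-II and CXCL2. The handling of reads that match several members of the cluster was not stated in the sources used here, so the split between them is uncertain.

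The monocyte attractant CCL2 was already abundant: it had 1217, 1897 and 1230 CPM with S100A4, against 320.3, 762.4 and 238.1 CPM in Control. It rose 3.63-fold (1.86 ± 0.13, adjusted p = 1.08e-06), least in replicate 2, where Control was highest. CCL5 had 5.71, 31.4 and 13.7 CPM with S100A4 and 2.31, 3.59 and 7.5 CPM in Control, groups that overlapped. It rose by 1.91 ± 0.31 (adjusted p = 0.000989), by 1.01 without replicate 2, and did not pass in DESeq2 (adjusted p = 0.0829). CXCL10, a chemokine for T cells, rested on 17, 15 and 49 counts with S100A4 and 3, 0 and 17 counts in Control (1.91 ± 0.46, adjusted p = 0.0142), and did not pass without replicate 1 (1.75, adjusted p = 0.0506). In all, 6 of 8 tested chemokines rose and none fell, with a median of 1.91. CCL19 (0.52 ± 0.18) and CCL8 (0.38 ± 0.14) did not pass.

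**Figure D2:**
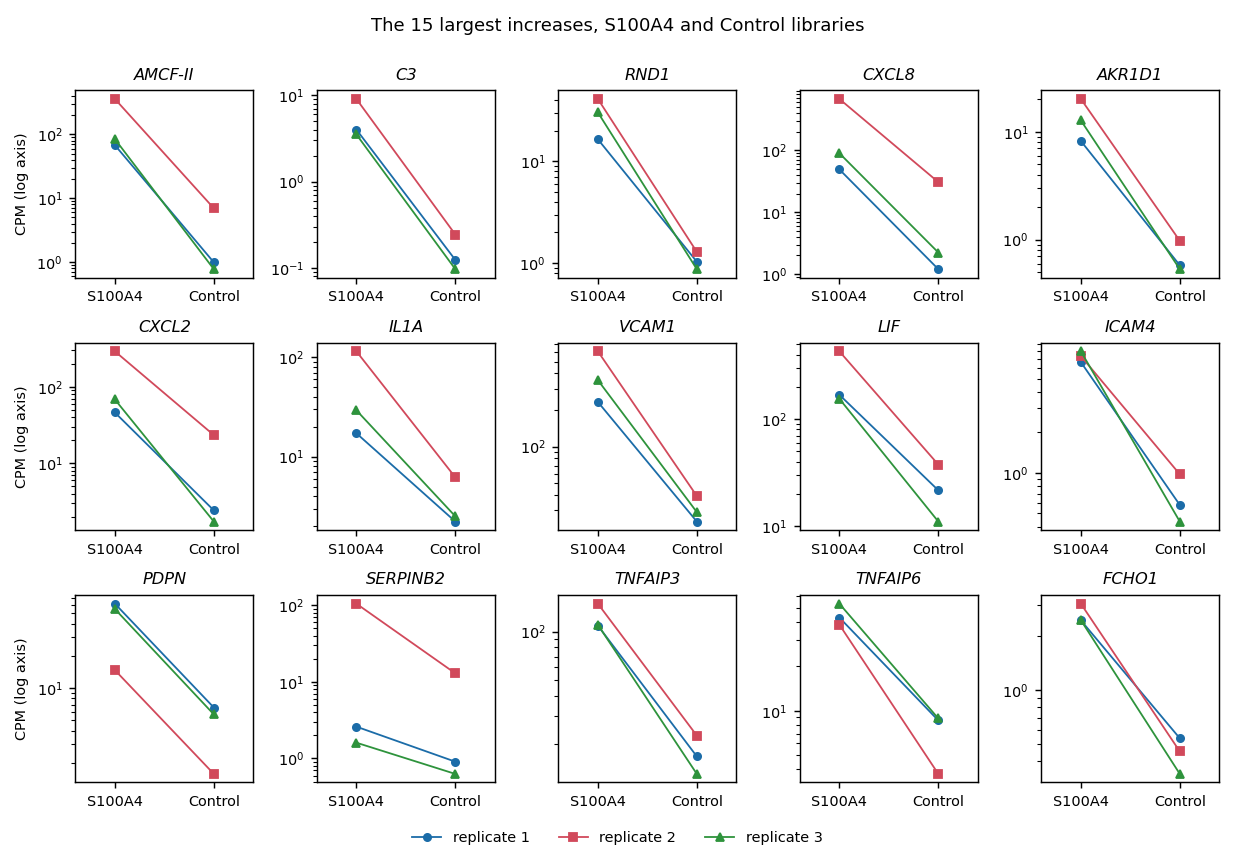
CPM on log axes in the 3 S100A4 (left) and 3 Control (right) libraries for the 15 annotated genes with the largest increases, with lines joining libraries of the same replicate number. All lines fall towards Control, which the rule that chose these genes required. Replicate 2 (squares) sits apart from the others in CXCL8, CXCL2, SERPINB2 (high) and PDPN (low).

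Of 28 tested cytokines and growth factors, 15 rose and 2 fell, with a median of 0.47. IL1A, interleukin-1 alpha, had 17.2, 115 and 29.3 CPM in S100A4 libraries, against 2.23, 6.20 and 2.52 CPM in Control libraries, a 14.3-fold rise (3.84 ± 0.15, adjusted p = 3.25e-09). LIF, a cytokine of the interleukin-6 family, had 169, 430 and 155 CPM with S100A4 and 21.6, 37.6 and 11.0 CPM in Control, a 10.6-fold rise (3.41 ± 0.10, adjusted p = 3.48e-10). In both genes the highest S100A4 library was replicate 2 and the groups did not overlap. The pairs of IL1A gave 2.90, 4.19 and 3.50. IL6 itself, chosen after its values were seen, had 36.0, 213 and 30.8 CPM with S100A4, against 12.9, 21.5 and 7.5 CPM in Control (2.51 ± 0.24, adjusted p = 1.63e-05). Its pair differences were 1.48, 3.30 and 2.03, so the size depended on replicate 2. OSMR, the receptor subunit for the related oncostatin M, also chosen after its values were seen, had 95.5, 93.7 and 94.7 CPM with S100A4 and 47.5, 45.4 and 41.8 CPM in Control (1.08 ± 0.05), with little spread. PTHLH, parathyroid hormone-like hormone, rose 3.97-fold (1.99 ± 0.06, adjusted p = 7.2e-10). CSF1, the growth factor of macrophages, had 322, 359 and 349 CPM with S100A4, against 178, 160 and 172 CPM in Control, and rose 2.02-fold (1.01 ± 0.05). The lymphatic growth factor VEGFC rose 2.27-fold (1.18 ± 0.05) although its groups overlapped, since each replicate had its own level. The EGF family ligand HBEGF rose 2.13-fold (1.09 ± 0.09). VEGFA (0.69 ± 0.11) and the vasoconstrictor EDN1 (0.65 ± 0.11) rose less. Both rose most in replicate 2, where VEGFA had 10690 counts with S100A4 and 5301 in Control, and EDN1 2154 and 1196. The members that fell were the neurotrophin BDNF (−0.58 ± 0.12) and BMP4 (−0.30 ± 0.05). BMP4 did not pass in edgeR's fit of all 12 libraries with the block (adjusted p = 0.311). CSF2, the granulocyte-macrophage factor, was below the filter and not tested. It had 4, 42 and 5 counts with S100A4 and no count in Control, at least 17.2-fold higher against a floor of 3 counts over the Control group, an amount that covers counting error only. Replicate 2 held 42 of the 51 counts, and without it, a setting chosen after seeing the data, the 9 remaining counts were at least 2.84-fold higher against the same floor.

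Genes for leukocyte adhesion rose in 6 of 14 tested cases and fell in none, with a median of 0.19. VCAM1, the ligand of integrin alpha4 beta1, had 234, 609 and 353 CPM with S100A4, against 24.2, 39.3 and 29.0 CPM in Control. All 3 S100A4 libraries were far above Control, a 12.4-fold rise (3.64 ± 0.09, adjusted p = 8.85e-11). ICAM1, the ligand of integrin LFA-1 (chr2:69097136-69107722), had 600, 812 and 650 CPM with S100A4 and 149, 173 and 122 CPM in Control, a 4.65-fold rise (2.22 ± 0.06, adjusted p = 1.16e-10). Its neighbour ICAM4 starts 0.887 kb after it (chr2:69108610-69110053) and had 6.62, 7.34 and 7.96 CPM with S100A4, against 0.578, 0.976 and 0.436 CPM in Control (3.40 ± 0.20). Whether reads running on from ICAM1 were counted for ICAM4 was not tested. The selectin SELP had 2.37, 160 and 5.25 CPM with S100A4 and 0.495, 49.5 and 2.37 CPM in Control, so nearly all of it came from replicate 2, where endothelial markers were also highest. Within pairs it rose by 1.66 ± 0.09 (adjusted p = 7.76e-08), and by 1.46 without replicate 2. CD44, the hyaluronan receptor, rose 1.45-fold (0.54 ± 0.03). CD47 (0.13 ± 0.04, adjusted p = 0.039) passed narrowly and did not pass without any 1 of the 3 replicates (adjusted p = 0.0556, 0.136 and 0.0676 without replicates 1, 2 and 3) or in DESeq2 (adjusted p = 0.159).

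Several of the largest increases lay outside these groups. RND1, a small GTPase that disassembles actin fibres, had 16.5, 41.2 and 30.4 CPM with S100A4, against 1.03, 1.29 and 0.871 CPM in Control (4.77 ± 0.14, adjusted p = 2.69e-10). AKR1D1, a steroid reductase of bile acid synthesis, had 8.22, 20.2 and 12.8 CPM with S100A4 and 0.578, 0.976 and 0.532 CPM in Control (4.28 ± 0.15). Both were without overlap. PDPN, podoplanin, a membrane glycoprotein that binds CLEC2 on platelets, had 61.7, 14.7 and 55.0 CPM with S100A4, against 6.57, 1.57 and 5.66 CPM in Control. Replicate 2 was lowest in both groups, but the pairs gave 3.22, 3.17 and 3.26, a 9.51-fold rise (3.25 ± 0.07, adjusted p = 3.38e-11). SERPINB2, plasminogen activator inhibitor 2, went the other way between replicates, with 2.60, 104 and 1.61 CPM with S100A4 and 0.908, 12.9 and 0.629 CPM in Control. It rose by 2.84 ± 0.17, and by 1.45 without replicate 2. FCHO1, an endocytic adaptor, rose 5.96-fold from low counts (2.58 ± 0.24). Of the genes called, 160 had no symbol in the annotation used here, 88 higher and 72 lower. Among them ENSSSCG00000016254, chosen after its values were seen, had 14.5, 25.4 and 32.9 CPM with S100A4, against 0.0826, 0 and 0.0484 CPM in Control. These were 1797 counts with S100A4 and 3 in Control, a ratio of 607 (95% exact interval 207 to 2950, counting error only). ENSSSCG00000006286, chosen in the same way, rose by 5.45 ± 0.08.

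Innate defence genes rose in 7 of 11 tested members and fell in none, with a median of 0.66. C3, the central complement component, had 4.02, 9.09 and 3.53 CPM with S100A4 and 0.124, 0.244 and 0.0968 CPM in Control. The Control libraries held 12 counts in total, and C3 rose 34.8-fold (5.12 ± 0.24, adjusted p = 1.72e-08). NLRP3, the sensor of the inflammasome, rose 2.65-fold (1.41 ± 0.08) with overlapping groups, as its level was highest in replicate 2 of both. The pentraxin PTX3 (1.02 ± 0.10) and the immunoproteasome subunit PSMB10 (0.78 ± 0.09) rose, with smaller changes in PSMB9 (0.66 ± 0.14), which did not pass without replicate 1 (adjusted p = 0.0676), and the peptide transporter TAP1 (0.19 ± 0.05), which did not pass without Control replicate 1 (adjusted p = 0.0794).

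Of 12 tested genes of prostaglandin and hyaluronan metabolism, 8 rose and none fell, with a median of 0.46. TNFAIP6, a hyaluronan-binding protein also called TSG-6, had 42.8, 38.4 and 53.2 CPM in S100A4 libraries, against 8.59, 3.73 and 8.86 CPM in Control libraries, a 6.52-fold rise (2.71 ± 0.13, adjusted p = 2.41e-08). PTGS2, cyclooxygenase-2, had 188, 860 and 221 CPM with S100A4 and 102, 203 and 114 CPM in Control. It rose by 1.34 ± 0.17 (adjusted p = 0.000148), by 0.93 without replicate 2. PTGES, which makes prostaglandin E2 downstream of it, rose 1.99-fold (0.99 ± 0.07), and the receptors PTGER2 (0.48 ± 0.08) and PTGER4 (0.86 ± 0.17) rose too. CEMIP, which depolymerises hyaluronan, rose 1.90-fold (0.92 ± 0.07), and the synthase HAS2 1.35-fold (0.44 ± 0.10).

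Among 19 tested proteases and their inhibitors 5 rose and 3 fell, with a median of 0.09. ADAMTS4, an aggrecanase that cleaves versican, had 118, 306 and 145 CPM with S100A4, against 27.7, 30.9 and 32.3 CPM in Control, a 5.91-fold rise (2.56 ± 0.17, adjusted p = 5.67e-07). The groups did not overlap. The rise of ADAMTS4 was largest in replicate 2, and its change ranged from 2.13 to 2.79 over the alternative fits. PLAU, urokinase, rose 1.91-fold (0.93 ± 0.07) and its receptor PLAUR 1.30-fold (0.38 ± 0.05). ADAM17, the sheddase of TNF (0.39 ± 0.05), and ADAMTS5 (0.63 ± 0.09) rose as well. TIMP3, an inhibitor of ADAM and ADAMTS proteases, fell 1.35-fold (−0.43 ± 0.05), tissue plasminogen activator PLAT fell by 0.27 ± 0.05 and ADAMTS15 by 0.85 ± 0.22. MMP2 did not pass (0.00 ± 0.03, adjusted p = 0.975).

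Genes of cell survival moved both ways, 7 of 15 higher and 4 lower, with a median of 0.14. SOD2, the mitochondrial superoxide dismutase, had 521, 839 and 578 CPM with S100A4 and 156, 192 and 131 CPM in Control, without overlap (2.01 ± 0.07, adjusted p = 7.2e-10). The anti-apoptotic IER3 (1.64 ± 0.05), CFLAR (0.77 ± 0.05) and MCL1 (0.53 ± 0.04) rose, and so did the pro-apoptotic PMAIP1, which encodes NOXA (1.61 ± 0.09), and the death receptor FAS (0.39 ± 0.07). The anti-apoptotic BCL2L1 (−0.26 ± 0.04) and the pro-apoptotic BMF (−0.35 ± 0.05) fell, as did the stress genes GADD45A (−0.42 ± 0.07) and GADD45B (−0.41 ± 0.08). In the list of metal handling and antioxidant genes 6 of 17 rose and 1 fell, with a median of 0.11. After SOD2, the zinc and iron importer SLC39A14 rose 2.13-fold (1.09 ± 0.08), thioredoxin reductase TXNRD1 1.5-fold (0.58 ± 0.04) and the cystine transporter SLC7A11 1.4-fold (0.49 ± 0.06). SLC40A1, the iron exporter ferroportin, had 217, 229 and 143 CPM with S100A4, against 291, 327 and 204 CPM in Control, and fell 1.4-fold (−0.49 ± 0.04, adjusted p = 1.5e-06). Its groups overlapped while its pairs gave −0.42, −0.51 and −0.52.

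Immediate early transcription factors rose in 11 of 21 cases and fell in 2, with a median of 0.31. MAFF, a small Maf protein, had 47.7, 63.6 and 76.4 CPM with S100A4 and 23.7, 31.5 and 32.9 CPM in Control (1.08 ± 0.05). The C/EBP factors CEBPB (0.82 ± 0.06) and CEBPD (0.98 ± 0.16), the orphan nuclear receptor NR4A2 (1.05 ± 0.12), ATF3 (0.54 ± 0.07), FOSL1 (0.44 ± 0.04) and MYC (0.39 ± 0.04) rose. FOS (−0.47 ± 0.09) and FOSL2 (−0.30 ± 0.04), both partners of JUN in AP-1, fell. JUNB was listed at 0 in all 6 libraries. KLF4 did not pass (−0.03 ± 0.06, adjusted p = 0.799). The ERK feedback list had 8 of 19 members higher and 1 lower, with a median of 0.25, and the changes were small. The EGF receptor inhibitor ERRFI1 (0.64 ± 0.07) and the Sprouty proteins SPRY2 (0.58 ± 0.08) and SPRY4 (0.54 ± 0.07) led, the phosphatase DUSP6 rose by 0.34 ± 0.07, and cyclin D1, CCND1, fell by 0.20 ± 0.04, which did not pass without replicate 3 (adjusted p = 0.0515). Of 24 genes for making ribosomes 7 rose and none fell, with a median of 0.10. They included the nucleolar proteins RRS1 (0.55 ± 0.07) and GNL3 (0.38 ± 0.05). With upper-quartile scaling 5 rose. Of 11 genes of mRNA decay and modification 4 rose and none fell, with a median of 0.10. WTAP, a subunit of the m6A methyltransferase that lies 27.6 kb from SOD2 on chromosome 1, had 96.2, 96.8 and 92.2 CPM with S100A4, against 62.1, 60.6 and 60.8 CPM in Control (0.64 ± 0.04). ZC3H12C, an RNase related to ZC3H12A, rose by 0.72 ± 0.05.

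**Figure D3:**
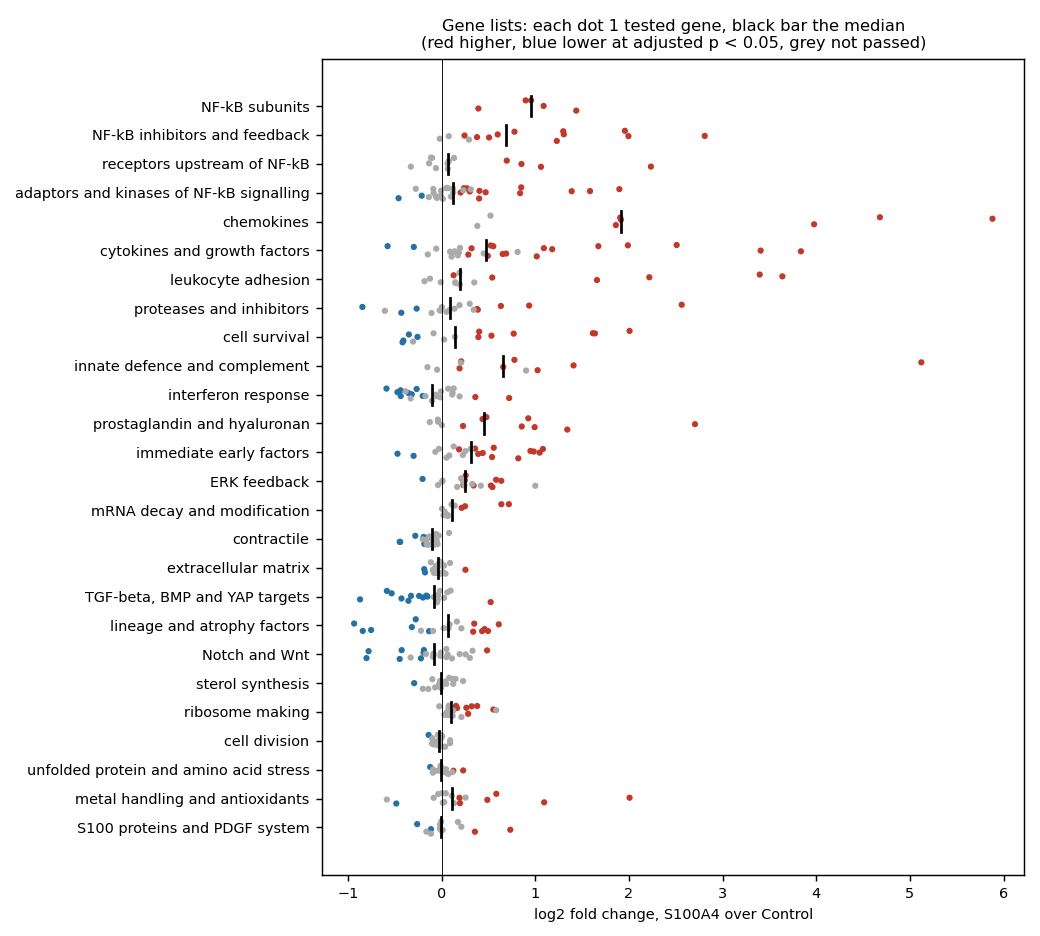
Log2 fold change of S100A4 over Control for every tested member of 26 gene lists, 1 dot per gene and a black bar at each list's median. Red members rose, blue members fell and grey members did not pass. The chemokine list reaches furthest to the right (5.88, AMCF-II), followed by innate defence and complement (5.12, C3), and the decreases stay within about 1 log2 unit.

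The genes that fell did so by less. LURAP1L, which encodes a protein related to an adaptor of MRCK kinases, had 12.5, 11.3 and 13.4 CPM with S100A4, against 24.9, 25.1 and 29.5 CPM in Control. The groups were far apart compared with their spread, and LURAP1L fell 2.14-fold (−1.10 ± 0.07, adjusted p = 2.11e-07). DRGX, a homeobox factor, had 0.776, 1.51 and 0.588 CPM with S100A4 and 2.73, 2.37 and 1.79 CPM in Control (−1.24 ± 0.25, adjusted p = 0.00468), a low level, and did not pass without Control replicate 1 (−0.99, adjusted p = 0.0669). TOX, a nuclear HMG-box protein, had 4.84, 4.76 and 4.00 CPM in S100A4 libraries, against 9.29, 10.0 and 6.73 CPM in Control libraries (−0.94 ± 0.11, adjusted p = 7.33e-05). ATOH8, a basic helix-loop-helix factor induced by BMP signalling, had 6.85, 3.61 and 5.25 CPM with S100A4 and 11.7, 9.30 and 7.45 CPM in Control (−0.87 ± 0.14). TRIM63, the muscle ubiquitin ligase MuRF1, had 3.97, 5.68 and 4.82 CPM with S100A4, against 8.38, 8.81 and 8.86 CPM in Control (−0.84 ± 0.11). LURAP1L, DRGX, TOX, ATOH8 and TRIM63 had no overlap between the groups, which held for 9.88% of all tested genes. GATM, which makes the creatine precursor, fell by 0.90 ± 0.15 with overlapping groups, and ZNF365 by 0.97 ± 0.18 without overlap. PACSIN1 (−0.95 ± 0.17) had 0 CPM in S100A4 replicate 1 and 0.124 CPM in Control replicate 1, so its change came from the other pairs. The remaining large decreases were of genes near 1 CPM and were less stable: C1orf116 (−0.88 ± 0.21) did not pass without replicate 3 (adjusted p = 0.117) or Control replicate 1 (adjusted p = 0.0512), nor TMEM229A (−0.88 ± 0.24) without replicates 1, 2 or 3 (adjusted p = 0.0506, 0.0506 and 0.123).

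**Figure D4:**
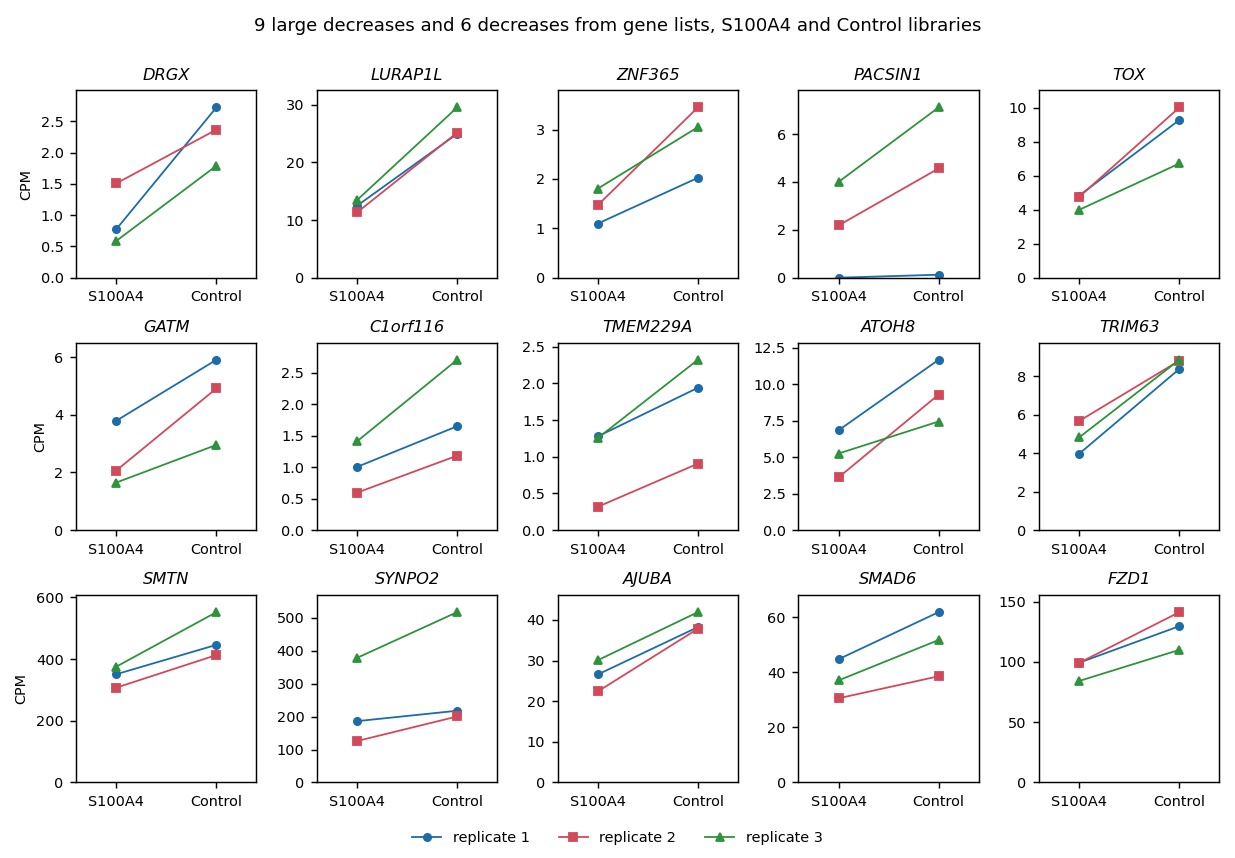
CPM in the 3 S100A4 (left) and 3 Control (right) libraries for 9 of the annotated genes with the largest decreases and 6 further genes from the lists (TRIM63, SMTN, SYNPO2, AJUBA, SMAD6 and FZD1), on axes that start at 0, with lines joining libraries of the same replicate number. All lines rise towards Control, which the rule that chose the 9 required. PACSIN1 and SYNPO2 show replicate levels that differ by more than the treatment.

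Contractile genes fell in 7 of 25 tested cases and rose in none, with a median of −0.10, against −0.02 over all tested genes. Of all tested genes 6.2% fell and 8.35% rose. Smoothelin, SMTN, a marker of contractile smooth muscle, had 351, 307 and 376 CPM with S100A4 and 446, 413 and 552 CPM in Control. It fell 1.36-fold without overlap (−0.44 ± 0.04, adjusted p = 1.16e-05). SYNPO2, an actin-bundling protein, fell by 0.45 ± 0.06, and leiomodin LMOD1 by 0.28 ± 0.06. ACTA2, smooth muscle alpha-actin, had 14640, 6734 and 15350 CPM with S100A4, against 15500, 7826 and 17910 CPM in Control (−0.17 ± 0.03, adjusted p = 0.00419). The difference between replicates in ACTA2 was far larger than that between groups, and without replicate 3 it did not pass (−0.14, adjusted p = 0.0735), nor did CNN1 (−0.15, adjusted p = 0.0632) and MYLK (−0.16, adjusted p = 0.0725), which fell by 0.19 ± 0.04 each over all 3 pairs. MYH11, smooth muscle myosin, did not pass over all 3 pairs (−0.08 ± 0.05, adjusted p = 0.39) but did without replicate 1 (−0.17, adjusted p = 0.018). TAGLN was listed at 3.29 to 6.86 CPM with S100A4 and 4.11 to 7.41 CPM in Control and did not pass (−0.20 ± 0.11, adjusted p = 0.279). Without replicate 3 the list had 3 members lower, without replicate 1 it had 11, and with upper-quartile scaling 14. Of the 10 smooth muscle markers, all of them also on the contractile list, 6 fell. In these bulk samples fewer smooth muscle cells and less of these RNAs per cell cannot be told apart.

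Targets and regulators of TGF-beta, BMP and YAP signalling fell in 10 of 21 cases and rose in 1, with a median of −0.08. AJUBA, a LIM protein that restrains the Hippo kinases, had 26.6, 22.4 and 30.1 CPM with S100A4 and 38.2, 37.8 and 41.9 CPM in Control (−0.59 ± 0.06, adjusted p = 3.48e-05), without overlap. The BMP targets ID4 (−0.54 ± 0.06), SMAD6 (−0.43 ± 0.05), ID3 (−0.15 ± 0.03) and ID2 (−0.16 ± 0.05) fell with ATOH8, and so did the YAP target ANKRD1 (−0.36 ± 0.05), the factor TEAD1 (−0.20 ± 0.05) and the ligands TGFB2 (−0.33 ± 0.06) and TGFB3 (−0.24 ± 0.04). BAMBI, a decoy receptor that blocks TGF-beta signalling, rose by 0.52 ± 0.06. The YAP targets CCN1 (0.10 ± 0.03, adjusted p = 0.0825) and CCN2 (−0.08 ± 0.04, adjusted p = 0.212) did not pass. ID1 was listed at 0 in all 6 libraries.

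Notch and Wnt genes fell in 7 of 23 cases and rose in 1, with a median of −0.09. The Wnt receptors FZD1 (−0.43 ± 0.04), FZD2 (−0.45 ± 0.06) and FZD7 (−0.22 ± 0.06), the feedback inhibitors NKD1 (−0.78 ± 0.09) and RNF43 (−0.80 ± 0.22), the secreted antagonist SFRP1 (−0.19 ± 0.03) and the Notch target HEY2 (−0.19 ± 0.05) fell. FZD7 did not pass without replicate 3 (adjusted p = 0.101). HES1, another Notch target, rose by 0.48 ± 0.08. Lineage and atrophy factors were split, 6 of 19 higher and 6 lower, with a median of 0.07. TCF21, a factor of fibroblasts and of modulated smooth muscle cells, had 15.4, 16.3 and 23.3 CPM with S100A4, against 11.2, 9.44 and 15.7 CPM in Control (0.61 ± 0.08), and TBX2 (0.43 ± 0.06) and SNAI1 (0.46 ± 0.07) rose, whereas TBX18 fell by 0.28 ± 0.05. HAND2 (−0.75 ± 0.13) came mainly from replicate 2, at 10.1 CPM with S100A4 and 18.6 CPM in Control, and did not pass without it (−0.46, adjusted p = 0.276). FBXO32, the other muscle ubiquitin ligase of the list, did not pass (0.07 ± 0.05, adjusted p = 0.407).

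Interferon-response genes fell in 8 of 23 cases and rose in 2, with a median of −0.10. IRF1, a factor induced by both interferon and NF-kB, had 51.2, 56.1 and 55.0 CPM with S100A4 and 34.3, 33.2 and 31.0 CPM in Control, without overlap (0.72 ± 0.06, adjusted p = 2.03e-06), and the RNA sensor IFIH1 rose by 0.36 ± 0.10. The antiviral genes USP18 (−0.44 ± 0.08), OAS2 (−0.35 ± 0.08), IFI44 (−0.44 ± 0.08), MX2 (−0.59 ± 0.12), MX1 (−0.32 ± 0.08) and DHX58 (−0.47 ± 0.12) fell. MX1 had 90.7, 39.0 and 128 CPM with S100A4, against 110, 38.9 and 192 CPM in Control, so the difference was largest in replicate 3 and near 0 in replicate 2. Without replicate 3 the list had 1 member lower, and the pair of replicate 2 gave 0.94 for MX2, the opposite sign.

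Other lists moved little, and their counts stand against 8.35% higher and 6.2% lower over all tested genes. Of 26 matrix genes 1 rose, tenascin-C TNC (0.25 ± 0.03), and 2 fell, COL8A1 (−0.18 ± 0.03) and THBS2 (−0.19 ± 0.06), with a median of −0.04. COL8A1 did not pass without S100A4 replicate 3 (adjusted p = 0.0529), nor THBS2 without replicate 1 (adjusted p = 0.0641) or 2 (adjusted p = 0.215). Of 19 sterol synthesis genes 1 fell, with a median of −0.01, and of 20 cell division genes 1 fell, MCM4 (−0.14 ± 0.04), which did not pass without replicate 3 (adjusted p = 0.257), with a median of −0.02. Of 14 genes of unfolded protein and amino acid stress 2 rose, TRIB3 (0.23 ± 0.05) and HSPA5 (0.12 ± 0.03), and 1 fell, VLDLR (−0.12 ± 0.03), with a median of −0.01. HSPA5 did not pass without replicate 1 (adjusted p = 0.104), nor VLDLR without replicate 3 (adjusted p = 0.2304). Among 13 genes of S100 proteins and the PDGF system, PDGFRA (0.35 ± 0.05) and PDGFB (0.73 ± 0.18) rose, PDGFD (−0.26 ± 0.04) and PDGFRB (−0.11 ± 0.03) fell, and the median was −0.01. PDGFB did not pass without replicate 1 (adjusted p = 0.0611) or 3 (adjusted p = 0.107), nor PDGFRB without replicate 1, 2 or 3 (adjusted p = 0.1903, 0.192 and 0.0708). The cells' own S100A4 gene had 99.9, 127 and 69.9 CPM with the protein added and 96.5, 142 and 66.6 CPM in Control and did not pass (−0.02 ± 0.05, adjusted p = 0.841). Of the marker lists for other cells, 1 of 6 tested endothelial genes rose, ERG (0.16 ± 0.05, adjusted p = 0.0475), which did not pass without replicate 1 (adjusted p = 0.0845) or 3 (adjusted p = 0.2855). Of 7 fibroblast genes TCF21 and PDGFRA rose and PI16 fell (−0.33 ± 0.09), which did not pass without replicate 2 (adjusted p = 0.501) or 3 (adjusted p = 0.0841). None of 3 leukocyte or 5 pericyte genes passed. No cardiomyocyte, Schwann cell or epithelial marker reached the filter. What part a shift in cell makeup had in the results above was not tested.

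The other 6 libraries show what S100A4 did when PDGF-BB was present. PDGF-BB+S100A4 against PDGF-BB, which shares no library with the comparison above, called 1007 genes, 632 higher (5.23%) and 375 lower (3.1%). It called 2155 without replicate 2, 583 with DESeq2 and 9 without the block (451 at an unadjusted p under 0.05). Of the 1010 genes that rose with S100A4 alone, 498 also rose there (49.3% of the 1010 and 78.8% of the 632). Of the 750 that fell, 186 also fell (24.8% of the 750 and 49.6% of the 375). Called in both but in opposite directions were 3 genes, TM4SF1, RASSF8 and CDKN1A. Both comparisons draw on the same 3 replicate numbers. Among genes described above, AMCF-II changed by 4.46 ± 0.23 with PDGF-BB present, CXCL8 by 3.46 ± 0.22, VCAM1 by 3.07 ± 0.13, TNFAIP3 by 2.26 ± 0.08, NFKBIA by 1.79 ± 0.06, ICAM1 by 1.75 ± 0.04 and RELA by 0.33 ± 0.04. These genes rose in both comparisons, and none of them passed the test of the difference itself. SMTN fell by 0.15 ± 0.04 there and LURAP1L by 0.73 ± 0.15. NKD1 (−0.07 ± 0.09, adjusted p = 0.728) and TIMP3 (−0.03 ± 0.07, adjusted p = 0.854) did not pass there.

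**Figure D5:**
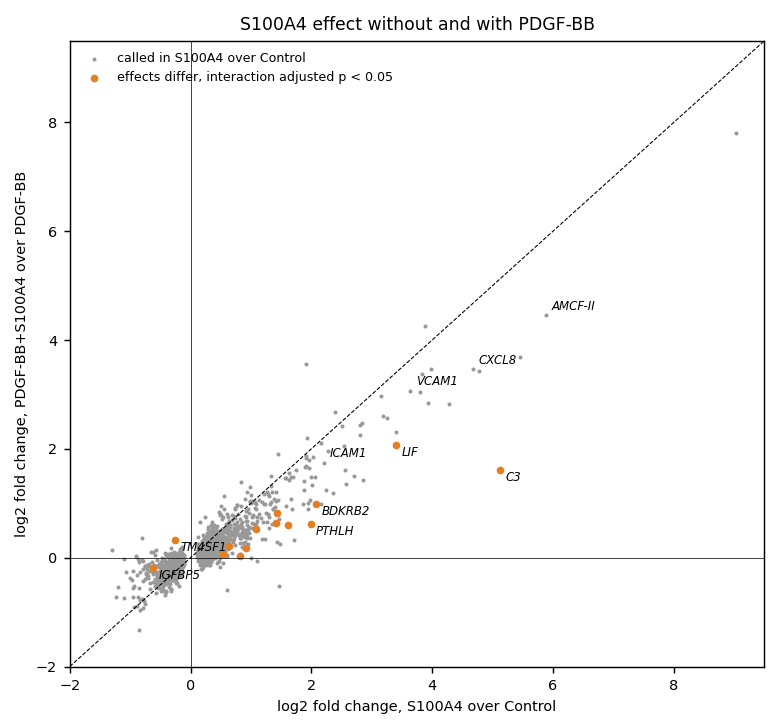
Log2 fold change of PDGF-BB+S100A4 over PDGF-BB (vertical axis) against that of S100A4 over Control (horizontal axis) for the 1760 genes called in S100A4 against Control, with the line of equal change dashed. Orange dots are the 14 genes whose effects differed by the interaction test. Most genes with large increases lie above 0 and below the dashed line, and C3 lies furthest from it. The genes were chosen by their change on the horizontal axis, which alone favours smaller changes on the vertical axis.

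The interaction, the S100A4 effect with PDGF-BB minus that without it in a fit of all 12 libraries, passed in 14 genes (0.116%), all of which were also called in S100A4 against Control. The count depended on the libraries and the fit: it was 0 without the block (144 genes at an unadjusted p under 0.05), 61 with DESeq2, 1 without replicate 1, 117 without replicate 2 and 2 without replicate 3. In 12 of the 14 the value was negative. The term subtracts the change between the same S100A4 and Control libraries. The overlap with the calls of that comparison and the sign are therefore not independent of those calls. C3 averaged 5.40 ± 3.00 CPM with S100A4 and 0.151 ± 0.0761 CPM in Control (mean ± SD), against 0.912 ± 0.848 CPM with PDGF-BB+S100A4 and 0.295 ± 0.198 CPM with PDGF-BB. PTHLH averaged 37.5 ± 9.93 CPM with S100A4 and 9.43 ± 2.00 CPM in Control, against 25.6 ± 6.57 CPM with PDGF-BB+S100A4 and 16.6 ± 4.92 CPM with PDGF-BB, so its level was highest with S100A4 alone. LIF averaged 244 ± 151 CPM with S100A4 and 22.8 ± 13 CPM in Control, but 1090 ± 395 CPM with PDGF-BB+S100A4 and 284 ± 189 CPM with PDGF-BB. Its fold change was smaller with PDGF-BB while its level was the highest of all groups with both proteins. BDKRB2, the bradykinin B2 receptor, followed LIF in this, with 14.2 ± 4.50 CPM with S100A4 and 3.40 ± 1.15 CPM in Control, against 31.6 ± 8.32 CPM with both and 15.9 ± 5.52 CPM with PDGF-BB. NAB1, a corepressor of EGR factors, averaged 69.0 ± 6.26 CPM with S100A4 and 47.3 ± 1.77 CPM in Control, against 39.1 ± 2.49 CPM with both and 37.3 ± 3.22 CPM with PDGF-BB, where S100A4 changed it by 0.06 ± 0.05.

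Set directly against PDGF-BB alone, a contrast that uses the same S100A4 libraries and an estimate of spread from all 12, the genes raised by S100A4 were split. Of the 1010 that rose over Control, 480 were higher with S100A4 than with PDGF-BB, 271 were lower and 259 did not pass. Over all tested genes, 5332 passed (44.1%), of which 2534 were higher with S100A4 (21% of those tested) and 2798 lower (23.1%). RND1 was higher with S100A4 than with PDGF-BB (5.24 ± 0.15), as were AKR1D1 (4.70 ± 0.24), VCAM1 (3.51 ± 0.17), IL1A (3.33 ± 0.16), PDPN (3.31 ± 0.12), MAP3K8 (3.27 ± 0.15), AMCF-II (3.06 ± 0.22), TLR2 (2.92 ± 0.19) and NFKBIA (2.17 ± 0.07). LIF (−0.19 ± 0.13, adjusted p = 0.26), BIRC3 (−0.01 ± 0.06, adjusted p = 0.886), CD44 (0.02 ± 0.04, adjusted p = 0.77), IL1R1 (0.05 ± 0.06, adjusted p = 0.5) and SERPINB2 (−0.01 ± 0.40, adjusted p = 0.988) did not pass, and the last of these has a wide error. Lower with S100A4 than with PDGF-BB were ERRFI1 (−2.63 ± 0.16), SPRY2 (−1.44 ± 0.14), PLAU (−1.33 ± 0.09), HBEGF (−1.19 ± 0.12), PLAUR (−1.10 ± 0.07), MYC (−0.86 ± 0.08) and the ribosome-making gene PPAN (−0.93 ± 0.07). Among genes that S100A4 lowered, LURAP1L (1.48 ± 0.12), SLC40A1 (1.60 ± 0.14), ATOH8 (1.79 ± 0.23) and SMAD6 (1.13 ± 0.09) were higher with S100A4 than with PDGF-BB, and ID4 was lower (−1.13 ± 0.15).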

How the data were processed

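RNA of 12 libraries was measured by RNA-seq, and the authors deposited raw counts per gene (no normalisation). Per the submitters' processing notes, CASAVA 1.8.2, STAR 2.4, featureCounts 1.4.6 and the build Sscrofa11.1 were used. The strand setting and the treatment of multiply matching reads were not given in the sources used here. Symbols were matched to the gene identifiers of the deposited counts. Coordinates came from RefSeq for Sscrofa11.1 and were matched by symbol, so they are those of the RefSeq gene and not of the counted identifier.

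The comparison used the 6 S100A4 and Control libraries. Genes with at least 10 counts in at least 3 of them (12095) were tested with edgeR 4.0.16 (quasi-likelihood, TMM scaling, Benjamini-Hochberg threshold 0.05, R 4.3.3) with replicate number as a block. CPM used TMM-scaled library sizes, and log2 pair differences a prior count of 2. At the lowest depth 1 CPM is 21.5 counts. Intervals and floors cover counting error only. The numbers were taken as pairs because deviations from group means correlated in same-numbered libraries (r = 0.805, 0.91 and 0.844, against −0.685 to 0.0861 otherwise). Replicates differed by more than sampling noise. The effect with PDGF-BB was fitted on the other 6 libraries, and the interaction and S100A4 against PDGF-BB on all 12.

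The members and gene lists were chosen with earlier results of these data known. Genes were named by a rule: among called genes that have a symbol, average 1 CPM or more and move 1 way in all pairs, the 15 largest increases and 10 largest decreases, up to 6 passing members of each list by adjusted p, and, where none passed, up to 2 by p. AGER, TLR4, TLR2, LURAP1L, CXCL8, ACTA2, MYH11, TAGLN, CNN1, SMTN, PDGFRA, PDGFRB and S100A4 were always looked at. Other list members with values, including all named as not passing, and the genes named for the comparisons with PDGF-BB, were chosen after their values were seen. Some genes that the rule names are not reported here.

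Alternatives were no block, DESeq2 1.42.0, limma-voom (limma 3.58.1), other scalings, other filters, all 12 libraries, a 2-fold threshold and leaving out each library or pair. Tested on simulated data for S100A4 against Control (12095 genes, 40 changed at each size), the fit recovered 77.5% of log2 −0.5, 80% of 0.5, 92.5% of −1, 97.5% of 1 and 100% of 2, with 14 false calls. The simulated counts came from the same model with the block, and 200 genes were changed. They cannot test the choice of the block, since its assumptions were built in.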

Additional observations from a re-analysis of the deposited data

Results flagged for a closer look

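In 14 genes the effect of S100A4 differed between cells with and without PDGF-BB by the interaction term of edgeR's quasi-likelihood fit over all 12 libraries, with adjusted p from 0.000149 for PTHLH to 0.0435 for PMAIP1 and 3 libraries in each of the 4 groups. The interaction is the log2 change with PDGF-BB minus that without it. It was −3.54 for C3, −1.35 for PTHLH, −1.31 for LIF, −1.08 for BDKRB2, −1.0 for PMAIP1, −0.77 for NEDD4L, −0.75 for PXYLP1, −0.73 for CEMIP, −0.61 for RELB, −0.55 for MAFF, −0.47 for NAB1 and −0.41 for WTAP. These 12 genes rose with S100A4 alone, and their change with PDGF-BB present was smaller. It was 0.60 for TM4SF1, which changed by 0.32 with PDGF-BB and by −0.26 without it, and 0.43 for IGFBP5, which changed by −0.20 with PDGF-BB and by −0.62 without it. The count of such genes was 1 without replicate 1, 117 without replicate 2 and 2 without replicate 3.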

How the results depend on the processing

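Of 1760 calls in S100A4 against Control, the fit without the replicate block left 27 (26 higher, 1 lower), DESeq2 858 (577 higher, 281 lower), all 12 libraries without the block 73 (72 higher, 1 lower) and a 2-fold threshold 133 (126 higher, 7 lower). Upper-quartile scaling raised the lower calls to 1147. All 12 libraries with the block gave 1333 calls (799 higher, 534 lower) and kept 1317 of the 1760. Among the genes that did not pass in that edgeR fit were HAS2 (adjusted p = 0.359), DUSP6 (0.319), BMP4 (0.311), ID2 (0.192), HEY2 (0.12) and ID3 (0.076). Limma-voom, relative log expression scaling and other filters on low counts stayed within 1.5 times, with 1679, 1751 and, without a filter, 1757 of the 1760 genes still called. Leaving out 1 library or pair gave 1133 to 1707 calls, 697 to 1036 higher and 416 to 683 lower. Each of these fits had 1 residual degree of freedom per gene, and leaving out 1 library took its whole pair out of the contrast. PDGF-BB+S100A4 against PDGF-BB gave 9 calls without the block, 583 with DESeq2 and 871 to 2155 with a replicate left out. The interaction gave 0, 61 and 1 to 117 calls in the same settings, and S100A4 against PDGF-BB 1392 calls without the block and 3599 to 5041 with a replicate left out. TLR4 turned to −0.0217 with DESeq2 and ranged from −0.24 to 0.24 with a library or pair left out, and the cells' S100A4 gene ranged from −0.05654 to 0.06507. The cause of these shifts was not tested. With 3 pairs an exact sign-flip permutation test of 1 gene cannot go below 0.25, so calls rest on the spread shared across genes.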
